A study of Saccharomyces cerevisiae with 14 samples.

Results

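The 31 genes described here encode proteins of the small subunit of the mitochondrial ribosome of budding yeast, Saccharomyces cerevisiae. They were taken by name from the 6664 genes of the deposited expression table: the MRPS and RSM proteins, MRP1, MRP2, MRP4, MRP13, MRP17, MRP21, MRP51, PET123, NAM9, SWS2 and EHD3. All 31 had a row, and all 31 were among the 6267 genes tested. Other proteins of the same subunit that this naming does not cover are given separately below, and VAR1, the subunit protein that the mitochondrial genome itself encodes, was not analysed here.

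Messenger RNA was measured in 14 poly(A) libraries, each from bulk culture. The wild type was BY4741, with mating type MATa and the markers his3Δ1, leu2Δ0, met15Δ0 and ura3Δ0, and the deletion strains carried fpt1::KanMX beside those same markers. Wild type gave 3 libraries and the deletion 4 in each medium, which was either the rich glucose medium YEPD at mid-log phase or ethanol for 2 h at 30 °C after growth in YEPD. In both media, deletion replicates 1 to 3 were strain NKI5633 and replicate 4 was strain NKI5620, so the second strain stands for itself with 1 library per medium. Replicates are described as biological, without saying whether cultures were separate, and the p-values below therefore reflect only how far these libraries differ, which may include technical variation. FPT1 itself was at 52.1 ± 0.292 FPKM in wild type in glucose and 148 ± 11 in ethanol (SD, n = 3), against means of 0.0894 and 0.179 FPKM in the deletion (n = 4). The deposited libraries sum to 1649739 to 2027946 FPKM, and their read depth is unknown.

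The mitochondrial ribosome translates the few messages of the mitochondrial genome, nearly all of which encode subunits of the respiratory chain and the ATP synthase. All but a very few of its proteins are made in the cytosol from nuclear genes and imported. Yeast that ferments glucose holds respiration low and raises it when ethanol is the only carbon source, and the messages of mitochondrial ribosomal proteins are a known class of targets of Puf3, an RNA-binding protein that recognises a short element after the stop codon and promotes decay of its targets during growth on glucose. Fpt1, the protein whose gene was deleted, is known as a factor found at genes transcribed by RNA polymerase III.

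The Puf3 element, searched as TGTANATA on the transcript's strand within 250 bases after the stop codon, was present after 30 of the 31 genes (96.8%). It was present after 42 of the 42 genes of the large subunit of the same ribosome (100%), after 2 of 56 genes of the cytosolic small subunit (3.57%) and after 895 of all 5730 annotated genes with such a window (15.6%). RSM22 was the only gene of the 31 with no match in its window. In 25 genes there was 1 match and in 5 there were more, and the nearest match began 8 to 139 bases after the stop codon. The window was fixed by distance, since the annotation used here gives no transcript ends, and a match is a description of the letters, not evidence of binding. The sites below are shown because they belong to the genes that rose most and least in ethanol, and both ends of that order carry the element. They are 30-base stretches of the R64 genome sequence (RefSeq), read 5′ to 3′ on the gene's strand, with the element in capitals. The first 5 follow the genes with the largest rises and the last 4 the genes with the smallest, RSM22 being left out for want of a match.
RSM10, chrIV:540462-540491, plus strand: gatttcgtactTGTAAATAaaataggtgaa
MRPS17, chrXIII:636217-636246, minus strand: gcactacactcTGTAAATAtatacaactac
RSM25, chrIX:187933-187962, minus strand: cctaaccaaccTGTATATAattaaaaacaa
MRPS12, chrXIV:694269-694298, minus strand: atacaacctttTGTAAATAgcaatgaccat
MRP21, chrII:49401-49430, plus strand: atttccgtcttTGTAAATAggtaatgcgta
MRP13, chrVII:647064-647093, minus strand: ataaacataccTGTAAATActaaaaagtag
RSM23, chrVII:267626-267655, minus strand: cccatttctcaTGTACATAtaaatagataa
EHD3, chrIV:523137-523166, minus strand: acttctatgcaTGTAAATAataaaagtaaa
MRP4, chrVIII:100429-100458, plus strand: taacctaaactTGTACATAtgcccatatat

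Upstream of the genes the picture was less uniform. In the 300 bases before the start codon, on both strands, the CCAAT box read by the Hap2/3/4/5 activator of respiration genes was present in 15 of 31 genes (48.4%), against 42.3% of all genes and 31% of the large-subunit genes. The rapid growth element, AATTTT, was present in 9 of 31 (29.0%), against 55.1% of all genes, 45.2% of the large-subunit genes and 60.7% of the cytosolic small-subunit genes. The stress element AGGGG was present in 3 of 31 (9.68%), against 22.5% of all genes, 9.52% of the large-subunit genes and 17.9% of the cytosolic small-subunit genes. Genes with and without a CCAAT box had median ethanol rises in wild type of 1.46 (15 genes) and 1.42 (16 genes) on the log2 scale. With and without AATTTT the medians were 1.45 (9 genes) and 1.42 (22 genes). With AGGGG the median was 1.89, in a range of 1.56 to 2.21 over 3 genes, and without it 1.41, in a range of 0.49 to 2.14 over 28 genes, so the ranges overlapped. The 31 genes lie on 12 chromosomes and none has an intron. RSM19 and MRPS12 are neighbours on chromosome XIV in the same orientation, 229 bases apart. MRP4 overlaps the gene YHL005C by 2 bases, and YHL005C was at 0.749 ± 0.354 FPKM in wild type in glucose (SD, n = 3).

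In glucose the 31 genes were expressed above the middle of the transcriptome but far below the cytosolic ribosomal proteins, and they differed among themselves. FPKM is per length, so levels were set side by side between genes. How effective length was handled is not given, and level went with coding length (Spearman's rho -0.79, described below). In wild type in glucose the group means ran from 41.4 FPKM for RSM22 to 371 FPKM for RSM18, with a median of 126, while the median over all genes was 55.1 FPKM. In each of the 4 groups 29 of the 31 genes lay above the all-gene median, and RSM22 and EHD3 were the 2 below it. Within a group the genes spanned 8.98-fold in wild type in glucose, 9.34-fold in the deletion in glucose, 20.9-fold in wild type in ethanol and 17.3-fold in the deletion in ethanol. When the genes were ordered by their mean in wild type in glucose, 7 of the 30 neighbouring pairs had no overlap between their libraries, so most neighbours in that order did not differ beyond their spread.

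**Figure D1:**
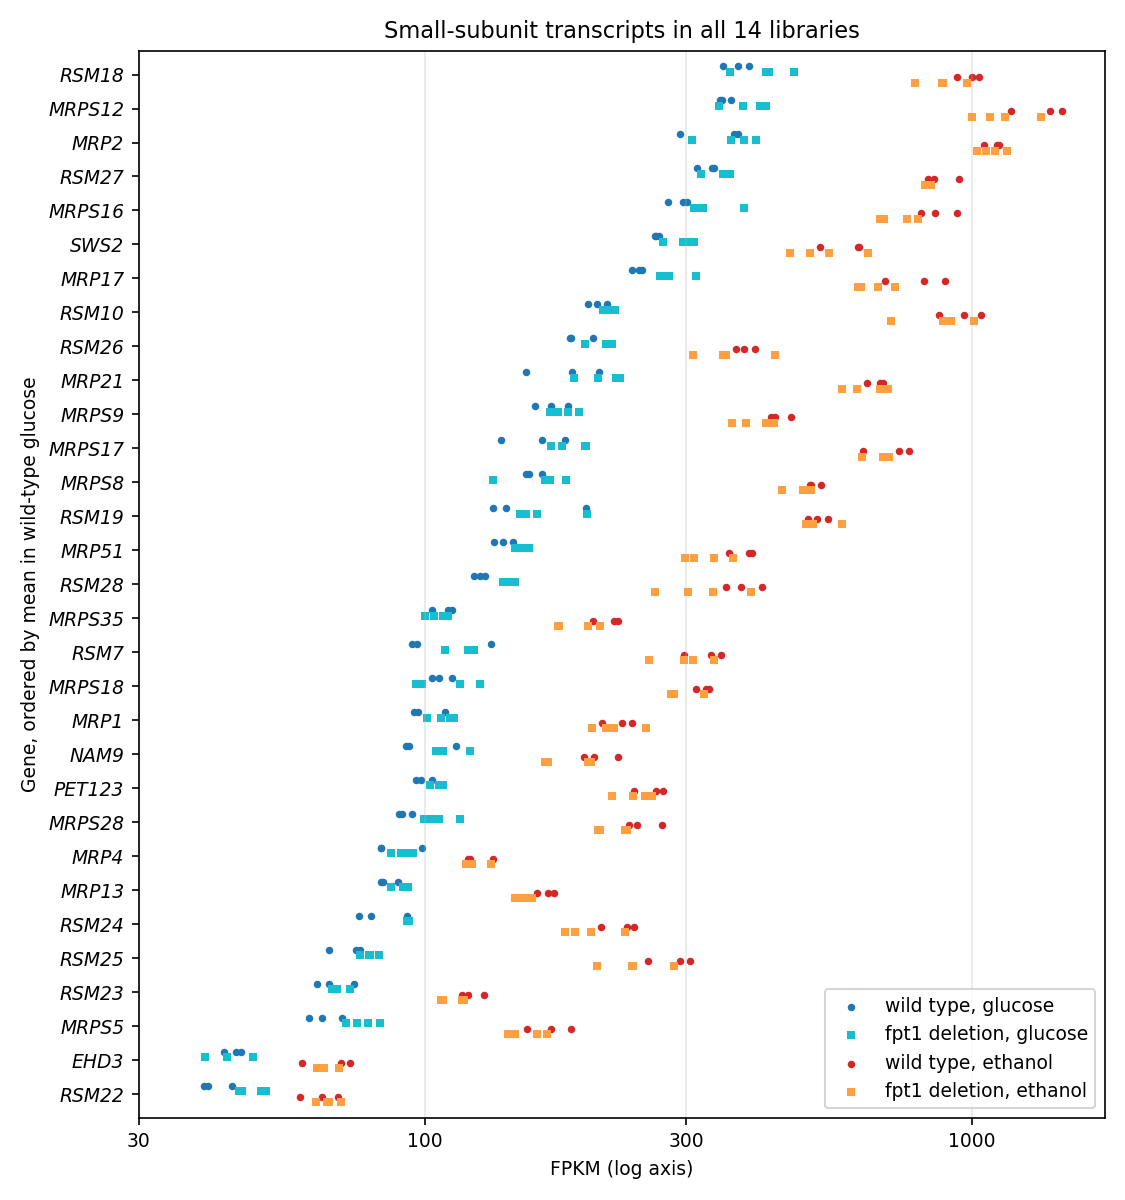
FPKM (log axis) of each of the 31 genes in each of the 14 libraries, with 1 point per library, coloured by group. The points for ethanol lie to the right of those for glucose in every gene, and wild type and deletion lie close within each medium. How common such a separation of the media is over all genes was not counted. Of all genes, 50.5% were called higher in ethanol in wild type and 46.9% in the deletion. In glucose every deletion library lies above every wild-type library in 9 genes, against 15.6% of all genes. In ethanol every deletion library lies below in 3 genes, against 4.12% of all genes.

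The gene with the highest level in glucose was RSM18 (YER050C), a relative of the bacterial ribosomal protein bS18. Its wild-type libraries were at 391, 373 and 350 FPKM in glucose and at 1000, 1030 and 938 FPKM in ethanol. MRPS12 (YNR036C), whose bacterial counterpart uS12 sits at the decoding centre, was at 363, 349 and 347 FPKM in glucose and at 1390, 1460 and 1180 FPKM in ethanol, where it became the highest of the 31. The third, MRP2 (YPR166C), a relative of uS14, was at 373, 368 and 293 FPKM in glucose and at 1120, 1110 and 1050 FPKM in ethanol. For all 3 genes every ethanol library lay far above every glucose library.

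At the other end were RSM22, EHD3 and MRPS5. RSM22 (YKL155C), a methyltransferase-like protein that associates with the subunit during its assembly, was at 44.5, 40.1 and 39.5 FPKM in wild type in glucose and at 59.1, 69.4 and 64.9 FPKM in ethanol. EHD3 (YDR036C), which is also the enzyme hydroxyisobutyryl-CoA hydrolase, was at 45.2, 42.9 and 46.1 FPKM in glucose and at 73.1, 70.3 and 59.6 FPKM in ethanol. MRPS5 (YBR251W), a relative of uS5, was at 70.5, 64.9 and 61.5 FPKM in glucose and at 170, 185 and 154 FPKM in ethanol. The media did not overlap in any of the 3, although the shift was small in the first 2.

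All 31 genes rose in ethanol in wild type. The median log2 change was 1.44, against 0.31 over all genes tested, and the changes ran from 0.49 to 2.21. Relative to the all-gene median, which median scaling sets near 0, the median change was 1.13 and the smallest rises shrank most in proportion. The changes are differences of log2(FPKM + 1), tested with limma across all 6267 genes with Benjamini-Hochberg adjustment, and adjusted p for the 31 genes ran from 3.48e-10 to 3.81e-05. At the same threshold of 0.05, 50.5% of all genes tested were higher in ethanol, so a call in itself was common. Changes of at least 1 were found in 25 of the 31 genes, against 23.4% of all genes. In the bulk samples, more RNA of these genes per cell and a smaller total from the rest of the cell cannot be told apart. Together the 31 messages took 0.269% to 0.305% of the summed FPKM in the wild-type glucose libraries and 0.716% to 0.791% in the ethanol libraries.

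The 5 largest rises were in RSM10, MRPS17, RSM25, MRPS12 and MRP21. RSM10 (YDR041W), a relative of uS10, was at 215, 206 and 199 FPKM in wild type in glucose and at 966, 1040 and 872 FPKM in ethanol. The means were 207 ± 8.34 and 960 ± 84.1 (SD, n = 3), a log2 change of 2.21 ± 0.10 (SE). MRPS17 (YMR188C), a relative of uS17, which binds ribosomal RNA in bacteria, was at 180, 164 and 138 FPKM in glucose and at 767, 736 and 633 FPKM in ethanol, a log2 change of 2.14. RSM25 (YIL093C), the protein mS23 that bacteria lack, was at 74.7, 76.2 and 66.9 FPKM in glucose and at 293, 305 and 256 FPKM in ethanol, a log2 change of 1.95. In each of these genes the lowest ethanol library was more than 3 times the highest glucose library. MRPS12 rose by 1.92 and MRP21 (YBL090W), a relative of bS21, by 1.89, with MRP21 at 208, 186 and 153 FPKM in glucose and at 680, 687 and 643 FPKM in ethanol.

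The 5 smallest rises were in MRP4, EHD3, RSM22, RSM23 and MRP13. MRP4 (YHL004W), a relative of uS2, was at 98.7, 83.0 and 83.3 FPKM in wild type in glucose and at 133, 121 and 120 FPKM in ethanol, a log2 change of 0.49 ± 0.08 (SE) with an adjusted p of 3.5e-05 from limma. Its media did not overlap, but its change was 0.17 with an adjusted p of 0.0406 under median scaling, and under quantile normalization it was 0.11 with an adjusted p of 0.149, and it was then the only one of the 31 not called. EHD3 changed by 0.58 ± 0.09 and RSM22 by 0.63 ± 0.08 (SE), each with the library values given above. RSM23 (YGL129C), the protein mS29, a GTP-binding protein whose human relative is known as DAP3, was at 74.2, 66.8 and 63.4 FPKM in glucose and at 120, 128 and 117 FPKM in ethanol, a change of 0.83. MRP13 (YGR084C), the protein mS44, was at 89.3, 84.0 and 83.0 FPKM in glucose and at 168, 172 and 160 FPKM in ethanol, a change of 0.96.

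Between the ends lay the other 21 genes, all called in both strains. Among relatives of bacterial proteins, NAM9 (uS4), whose bacterial counterpart starts the folding of the small-subunit RNA, went from 99.8 ± 11.9 to 208 ± 15.1 FPKM in wild type (SD, n = 3), a log2 change of 1.06. SWS2 (uS13) changed by 1.15, MRPS9 (uS9) by 1.38, MRPS28 (uS15) by 1.44 and MRP51 (bS1), which acts in the translation of mitochondrial messages, by 1.45. MRPS18 (uS11) changed by 1.58, RSM7 (uS7) by 1.6, MRPS8 (uS8) by 1.71 and RSM19 (uS19) by 1.75. RSM19 varied most among the glucose libraries of these, at 197, 133 and 141 FPKM in wild type, yet its ethanol libraries at 501, 545 and 521 FPKM were all far above. Among proteins that bacteria lack, MRPS35 (mS45) changed by 0.99, RSM26 (mS42) by 1.01, MRP1 (mS43) by 1.16 and PET123 (mS26) by 1.38. RSM27 (mS33) changed by 1.41, RSM24 (mS35) by 1.46 and RSM28 (mS46) by 1.6. RSM26 and MRP1 resemble manganese superoxide dismutase in sequence.

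The rises therefore differed in size as well as being shared. Across the 31 genes they spanned 1.72 on the log2 scale, and in 252 of the 465 pairs of genes the 95% intervals of their changes did not overlap. The order of the levels was largely kept, with a Spearman's rho of 0.94 between wild type in glucose and wild type in ethanol over the 31 genes, which share their libraries. Genes already high in glucose tended to rise more, with a rho of 0.48 between level in glucose and change. The same rho was 0.52 over the 42 large-subunit genes, 0.49 over the 56 cytosolic small-subunit genes and -0.29 over 5733 genes of the table. The changes of the cytosolic genes ran from -1.71 to -0.14, so among them a positive rho means that genes higher in glucose fell less.

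**Figure D2:**
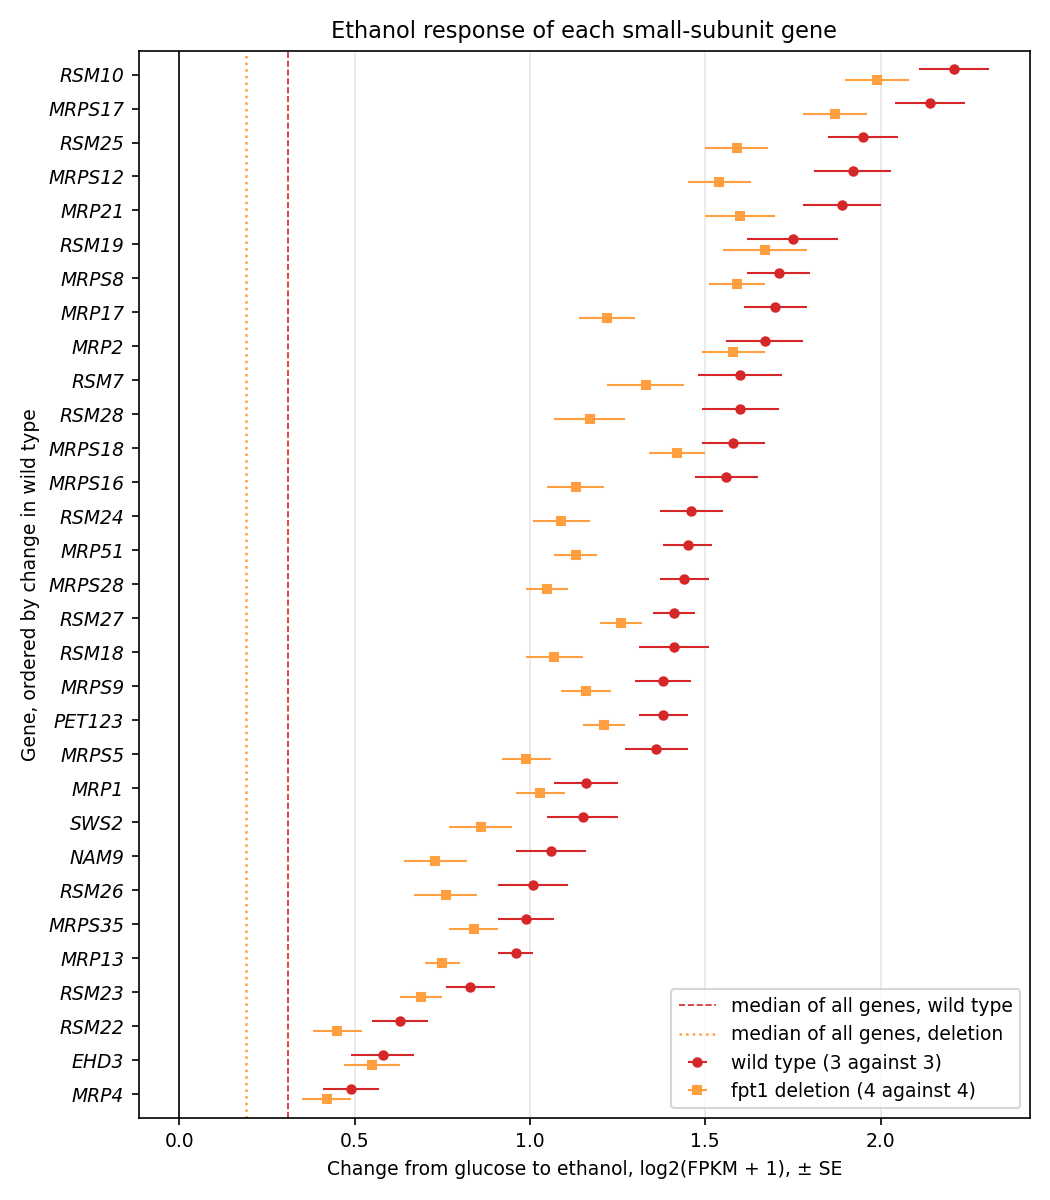
Log2 change from glucose to ethanol of each gene in wild type and in the fpt1 deletion (points) with the SE from limma (bars), ordered by the wild-type change, with dashed and dotted lines at the medians of all genes. All 31 genes lie to the right of 0 in both strains, and in every gene the deletion's point lies to the left of the wild type's, an order that turns in 4 genes with median scaling and in 3 with quantile normalization.

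The genes can be grouped by where the protein comes from. A bacterial counterpart exists for 19 of them, and their median wild-type change was 1.58, in a range of 0.49 to 2.21. For the 11 proteins that bacteria lack, the median was 1.16, in a range of 0.58 to 1.95. RSM22 stands apart from both. The ranges overlapped over most of their length, and the highest of the second group, RSM25, passed all but 2 of the first. The 2 groups also differed in gene length, with median coding lengths of 612 and 966 bases, and the part of length in the difference was not tested.

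Coding length went with both level and response. Lengths ran from 276 bases (RSM19) to 1887 bases (RSM22), with a median of 801. Over the 31 genes Spearman's rho was -0.79 between length and level in wild type in glucose and -0.65 between length and the wild-type ethanol change. The 10 shortest genes, of 276 to 534 bases, had a median level of 278 FPKM and a median change of 1.69, in a range of 1.15 to 1.92. The 10 longest, of 966 to 1887 bases, had a median level of 94.1 FPKM and a median change of 0.97, in a range of 0.49 to 1.6. The same 2 correlations were -0.72 and -0.58 over the 42 large-subunit genes, -0.32 and -0.10 over the 56 cytosolic small-subunit genes, and -0.26 and -0.25 over 5733 genes of the table. The length used was the annotated gene length, which is the coding length in the 31 genes, none of which has an intron. Whether it takes in introns in the other lists was not checked, so there it may not be coding length. Genes are not independent replicates and all points share the same libraries, so these are descriptions. How effective length entered the deposited FPKM values is not given in the sources used here. Its part in the relations with level and with change was not tested. A change within a gene compares values divided by the same length only if that length was fixed across libraries, which is not given.

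**Figure D3:**
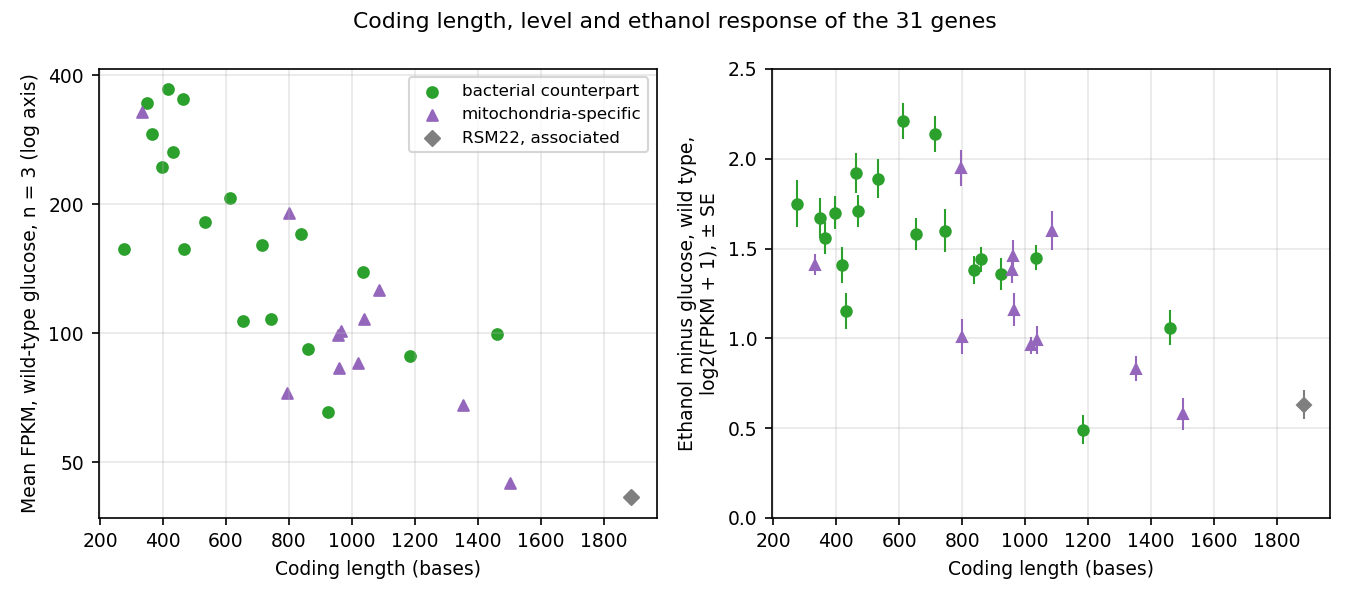
Coding length in bases against mean FPKM in wild type in glucose (log axis) and against the log2 change in ethanol in wild type with its SE, with 1 point per gene and a marker for each class of protein. Short genes such as RSM19 lie at higher levels and larger changes than long genes such as RSM22.

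In the fpt1 deletion all 31 genes also rose in ethanol. The median log2 change was 1.13, against 0.19 over all genes tested, in a range of 0.42 to 1.99, and adjusted p from limma ran from 2.62e-10 to 4.12e-05. Over all genes, 46.9% were called higher. Changes of at least 1 were found in 21 of the 31, against 17.4% of all genes. RSM10 again had the largest change, 1.99, with deletion libraries at 217, 212, 223 and 223 FPKM in glucose and at 1010, 885, 914 and 711 FPKM in ethanol. The sum of the 31 genes was 0.305% to 0.320% of all FPKM in the deletion glucose libraries and 0.603% to 0.755% in the ethanol libraries.

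In glucose the deletion and wild type did not differ in any of the 31 genes by limma's adjusted p, with a lowest value of 0.343. Over all genes tested 0.0319% were called, 2 in number. At an unadjusted p under 0.05 there were 7 of the 31 genes, against 723 of all 6267. The estimates had a median of 0.13 and a range of -0.04 to 0.23. Of the 31, 30 lay above 0, but only 18 did with median scaling and 23 with quantile normalization. The median over all genes was itself 0.08, and 21 of the 31 lay above that. Every deletion library was above every wild-type library in 9 of the 31 genes, against 15.6% of all genes. The largest estimate was in MRPS5, at 75.1, 71.8, 78.8 and 82.7 FPKM in the deletion beside the wild-type values above, a difference of 0.23 with an adjusted p of 0.369. Its groups did not overlap. MRP21 followed, with a difference of 0.22 and deletion libraries at 207, 187, 224 and 227 FPKM, which overlapped with wild type. RSM22 was close behind, with deletion libraries at 46.3, 45.7, 50.2 and 51.2 FPKM, all above wild type, and a difference of 0.22. The smallest were MRPS35 at -0.04, with wild type at 110, 112 and 103 FPKM and the deletion at 100, 104, 110 and 108 FPKM, and EHD3 at 0.00. Both overlapped. The 95% intervals of all 31 differences lay within -0.19 to 0.44.

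In ethanol, too, none of the 31 genes passed the adjusted threshold between the strains, with a lowest adjusted p of 0.112 from limma. Over all genes 0.0319% were called, again 2 in number, and at an unadjusted p under 0.05 there were 10 of the 31 against 1510 of all genes. The estimates now lay mostly on the other side, with 2 of 31 above 0 (4 with median scaling and 6 with quantile normalization), a median of -0.13 against -0.04 over all genes, and a range of -0.27 to 0.05. The lowest was MRP17 (YKL003C), a relative of bS6, with wild-type libraries at 817, 893 and 693 FPKM and deletion libraries at 722, 672, 626 and 619 FPKM. Only the first deletion library reached into the wild-type range, and the difference of -0.27 had an adjusted p of 0.113. RSM28 was next at -0.25, with wild type at 379, 414 and 355 FPKM and the deletion at 395, 303, 336 and 263 FPKM. Every deletion library was below every wild-type library in 3 genes, MRP13, MRPS28 and MRPS16, against 4.12% of all genes. At the upper end were RSM22 with 0.05 and RSM19 with 0.00, whose deletion libraries were at 509, 579, 497 and 512 FPKM in ethanol, across the wild-type range. The intervals of the 31 differences lay within -0.48 to 0.27.

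The ethanol comparison between strains rested on single libraries. Without deletion replicate 1 in ethanol, 8 of the 31 genes were called lower in the deletion (RSM28, MRP17, MRPS12, RSM25, MRPS16, MRP51, RSM24 and MRPS35, with differences of -0.35 to -0.24), while 6.77% of all genes were called lower. Without wild-type replicate 3 in ethanol, 2 of the 31 were (MRP17 and MRP51), while 6.72% of all genes were. The mean log2 level of the 31 genes was 8.47, 8.34, 8.37 and 8.24 in deletion replicates 1 to 4 in ethanol and 8.49, 8.55 and 8.40 in the wild-type replicates, so the libraries whose removal made calls were those nearest to the other strain. The mean log2 level of the 56 cytosolic small-subunit genes was 11.10, 11.61, 11.11 and 11.67 in the same deletion replicates and 10.95, 10.79 and 11.28 in the wild-type replicates. The deletion libraries with the highest cytosolic values, replicates 2 and 4, were those with the lowest mitochondrial values, and the part of this in the differences was not tested.

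**Figure D4:**
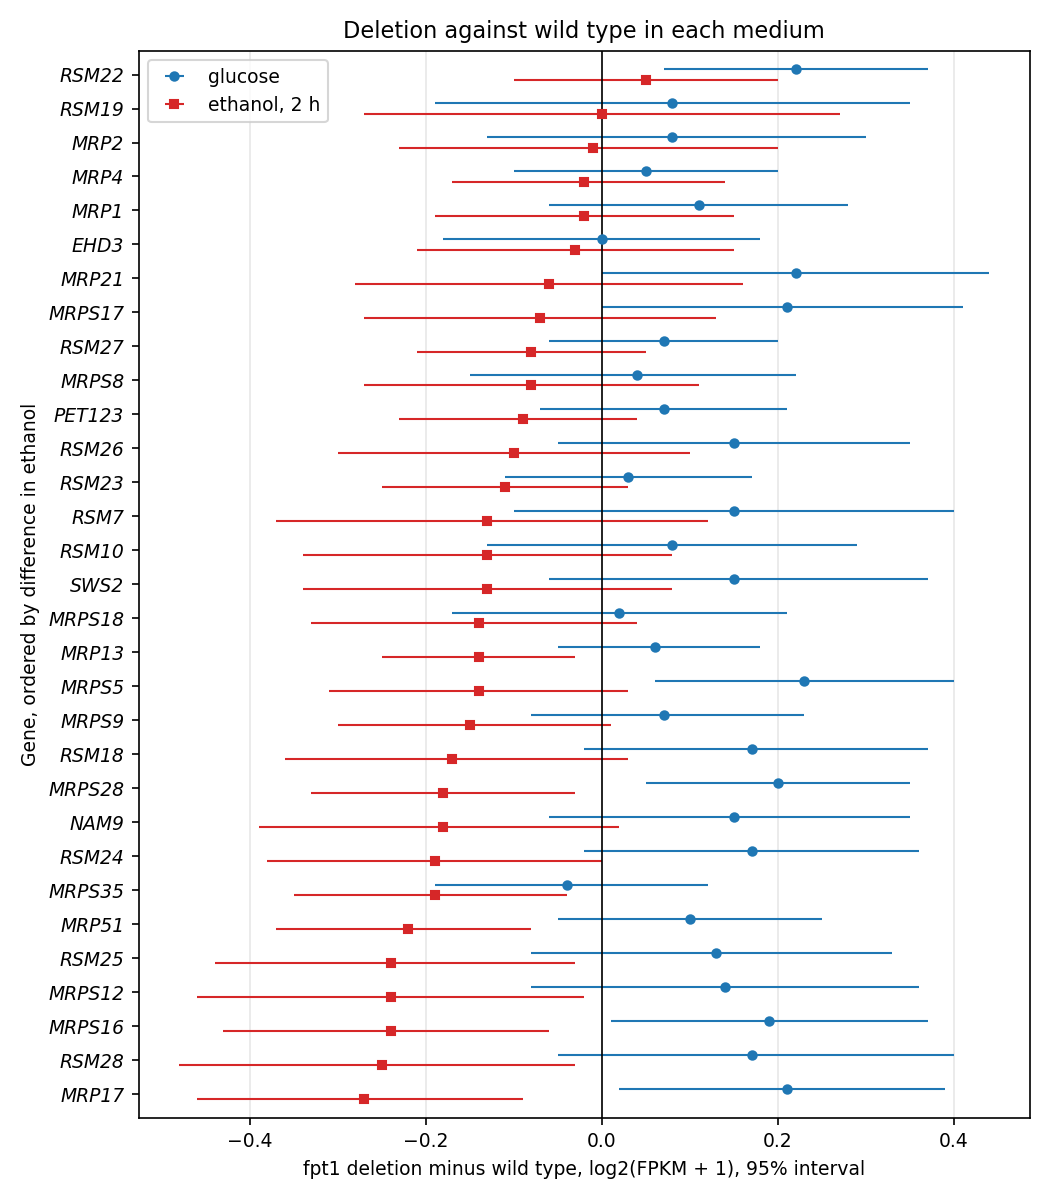
Log2 difference between the fpt1 deletion and wild type for each gene in glucose and in ethanol (points) with 95% intervals (bars) from limma, ordered by the ethanol difference. In glucose 30 of 31 estimates lie above 0 (18 with median scaling, 23 with quantile normalization) and in ethanol 2 of 31 do (4 and 6), and none of the differences passed the adjusted threshold.

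The rise in ethanol was smaller in the deletion than in wild type in all 31 estimates on the deposited scale, in 27 with median scaling and in 28 with quantile normalization, but in no gene did the difference of the responses pass the adjusted threshold. The interaction term had a median of -0.25, against -0.12 over all genes, a range of -0.48 to -0.04 and a lowest adjusted p of 0.134 from limma. Over all genes 0% were called, and at an unadjusted p under 0.05 there were 12 of the 31 against 1603 of all genes. MRP17 had the lowest estimate, -0.48 with an adjusted p of 0.134, from a rise of 1.70 in wild type and 1.22 in the deletion. MRPS16 (YPL013C), a relative of bS16, followed with -0.43, from rises of 1.56 and 1.13, with wild-type libraries at 302, 297 and 278 FPKM in glucose and 855, 939 and 808 FPKM in ethanol. Its deletion libraries were at 321, 310, 323 and 383 FPKM in glucose and 796, 761, 679 and 692 FPKM in ethanol. These libraries were all higher in glucose and all lower in ethanol than those of wild type. Neither strain difference of MRPS16 was called, with adjusted p from limma of 0.413 in glucose and 0.128 in ethanol. EHD3 lay nearest to 0, at -0.04. The estimates of EHD3, MRP4 and RSM19 were above 0 under both scalings and that of MRP2 under median scaling. The intervals of the 31 terms lay within -0.74 to 0.30. Without deletion replicate 1 in ethanol 11 of the 31 genes were called, while 9.35% of all genes were called with a term below 0. Without wild-type replicate 3 in ethanol 5 of the 31 were called, while 6.65% of all genes were called with a term below 0. The interaction is built from the same 4 groups as the comparisons above and is no separate measurement.

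The large subunit of the mitochondrial ribosome, counted over 42 genes, moved in the same directions. In ethanol 42 of 42 rose in wild type with a median of 1.54, in a range of 0.68 to 2.35, and 42 of 42 rose in the deletion with a median of 1.23. Between the strains its medians were 0.13 in glucose and -0.16 in ethanol, and its median interaction was -0.30, with 0 genes called in each. The cytosolic small subunit, counted over 56 genes, went the other way, with medians of -1.09 in wild type and -0.65 in the deletion. Called lower were 55 genes in wild type, against 1555 of all 6267, and 45 in the deletion, against 1733. Estimates above 0 numbered 0 in wild type and 2 in the deletion. In ethanol the median difference between the strains was 0.36 for these 56 genes, with all 56 estimates above 0 (55 with quantile normalization) and 0 called. These 3 lists are measured in the same libraries, and FPKM is relative to the library's total, so their values are not independent of each other.

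**Figure D5:**
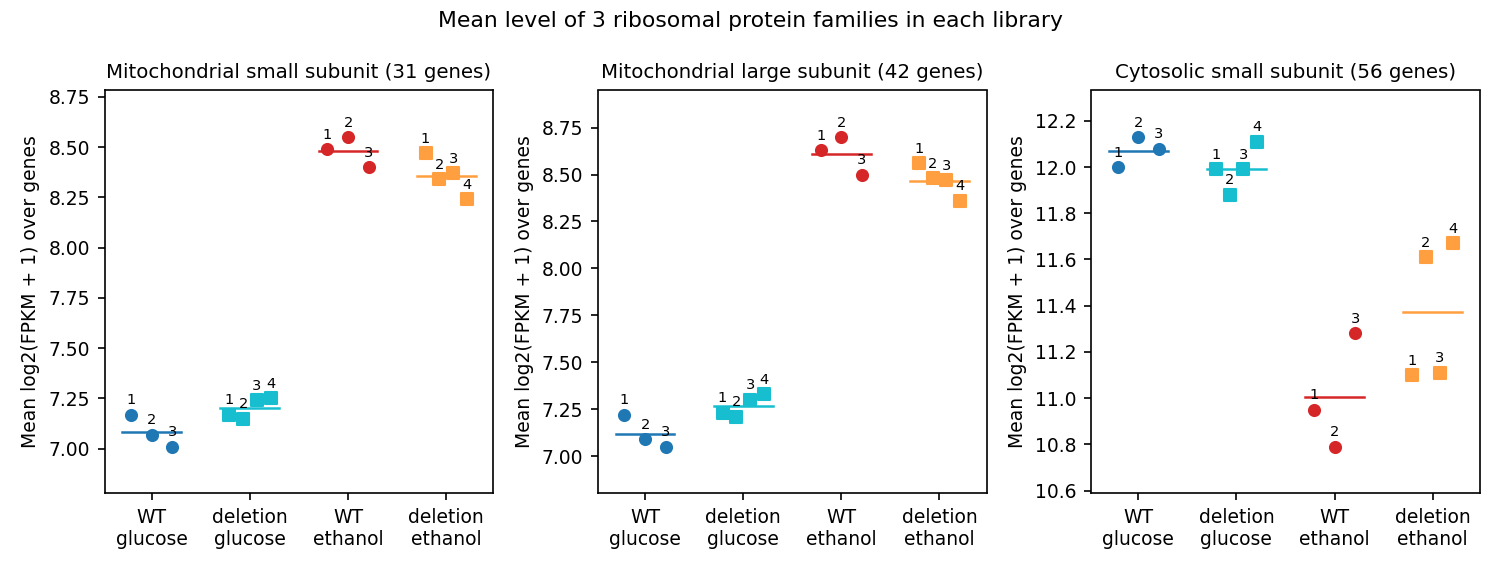
Mean log2(FPKM + 1) per library of the 31 small-subunit genes, the 42 large-subunit genes and the 56 cytosolic small-subunit genes, with 1 numbered point per library and a line at each group's mean. Both mitochondrial lists are higher in ethanol in every library and the cytosolic list is lower, with the 4 deletion libraries in ethanol spread from 11.10 to 11.67 in the cytosolic list.

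Other genes of mitochondrial translation were counted beside the 31. Among 4 genes tied by name or annotation to the small subunit but outside the naming rule, MRP10 went from a mean of 404 to 831 FPKM in wild type (log2 change 1.03), FYV4 from 129 to 337 FPKM (1.38), QRI5 from 233 to 749 FPKM (1.67) and KGD4 from 66.2 to 587 FPKM (3.13). KGD4 was once listed as a ribosomal protein under the name YMR31 and is now annotated as a subunit of a dehydrogenase complex, and its change lay above the range of the 31. Of 9 mitochondrial translation factors 8 were called higher in both strains, with medians of 1.49 and 1.10 over the 9. Over all genes 50.5% were called higher in wild type and 46.9% in the deletion, with medians of 0.31 and 0.19. TUF1, the mitochondrial elongation factor Tu, went from 227 to 766 FPKM, a change of 1.75, and MEF2, which acts in ribosome recycling, changed by 1.84. FMT1, which formylates the initiator tRNA, had a change of 0.12 and was not called.

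Genes for building the ribosome and for single messages were more mixed. Of 7 assembly factors 5 were called higher in wild type, among them the GTPase MTG1 with 1.00, and 0 were called lower. Their median was 0.55, against 0.31 over all genes, of which 50.5% were called higher. GEP3 was at -0.09 and not called. In the deletion 5 of the 7 were called higher, against 46.9% of all genes, and the helicase MRH4 was called lower, by 0.31. Of 15 activators of single mitochondrial messages 11 were called higher and 2 lower in wild type, with the same counts in the deletion. Their median in wild type was 0.71. Of all 6267 genes, 1555 were called lower in wild type and 1733 in the deletion. CBP6, needed for cytochrome b synthesis, rose by 1.97 and PET494, needed for synthesis of a cytochrome oxidase subunit, by 1.6, whereas CBP1 fell by 0.33 and PET309 by 0.25. Among regulators, HAP4, the activating subunit of the Hap complex, went from 104 to 265 FPKM (1.34), and HAP2, HAP3 and HAP5 rose by 1.10, 1.2 and 1.32. PUF3 itself was at 20.1 ± 1.44 FPKM in glucose and 25.5 ± 4.09 in ethanol in wild type (SD, n = 3), a change of 0.32 with an adjusted p of 0.0179 from limma.

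The element after the stop codon was set against the ethanol change outside the mitochondrial ribosome as a description. The 823 other genes with the element had a median wild-type change of 0.53, and 63.9% of them were called higher. The 4834 genes without it had a median of 0.27, and 51.1% were called higher. Both medians lie below those of the small and large subunits of the mitochondrial ribosome. Within the small subunit, the 30 genes with a match had a median of 1.44, from 0.49 (MRP4) to 2.21. RSM22, the only gene with no match, rose by 0.63, and 1 gene cannot stand for a group. The part of the element in the rises was not tested.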

How the data were processed

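The authors deposited 1 table of FPKM values (fragments per kilobase of gene, scaled to the library's mapped fragments), with a column for each of the 14 libraries and a row for each of 6664 genes. Per the labels' protocols, RNA was DNase-treated and made into stranded poly(A) libraries read as 65-base single reads. Reads were aligned against the sacCer3 build and STAR 2.7.1a was run, per the submitters' processing notes. How FPKM was computed, with what annotation and strand setting, is not given in the sources used here. Values as low as 3.09e-25 occur, so whole reads could not be recovered and no interval for counting error is given.

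The deposited FPKM values were put on a log2 scale as log2(FPKM + 1). A gene was kept if 3 or more samples had 1 FPKM or more, which left out 397, of which 178 were at 0 everywhere. All 14 samples were fitted together in limma 3.58.1 (R 4.3.3) with a mean per group and a mean-variance trend, and p was adjusted by the Benjamini-Hochberg method within each of 5 comparisons at 0.05. The fit was tested on simulated data. Positions and sequences came from RefSeq's R64 genome and annotation, which matched 5989 gene IDs. Alternatives were other pseudocounts, filters and scalings, a replicate block, the strain NKI5620 left out, other fits and each library left out. Genes named are the 5 largest and 5 smallest ethanol changes, the 3 highest and 3 lowest levels and the ends of each strain comparison. The other genes named with their values in the lists were picked after their values were seen. The members, lists and tests were chosen with earlier results of these data known.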

Additional observations from a re-analysis of the deposited data

Results flagged for a closer look

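In the groups of 4 libraries, 3 of 62 gene and group combinations were flagged, and chance flags about 1 in 20. A flag means that the gap from a library to its nearest neighbour was large for the range of that group, which can be narrow. MRPS16 was at 383 FPKM in deletion replicate 4 in glucose, above the other libraries at 310 to 323. MRPS18 was at 324 FPKM in deletion replicate 1 in ethanol, above the others at 282 to 285. RSM27 was at 843 FPKM in deletion replicate 4 in ethanol, above the others at 822 to 825, a small gap for its level.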

How the results depend on the processing

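The count of genes called higher in ethanol was 30 or 31 of 31 in wild type and 31 in the deletion over 10 other settings, and 31 in each strain with any of the 14 libraries left out. The median rise in wild type was 1.11 with median scaling and 1.03 with quantile normalization, and in the deletion 0.92, 0.80 and, without strain NKI5620, 1.21. With median scaling the median difference between strains in glucose was 0.04, and the median interaction was -0.14, or -0.15 with quantile normalization. No gene of the 31 was called between strains in glucose in any of the 24 alternatives. With a library left out, 0 to 8 genes were called between strains in ethanol and 0 to 11 in the interaction, the libraries being those named in the report. Among the genes at the ends of each strain comparison, the estimates other than 0.00 that crossed 0 were the interaction of MRP4 (0.04 with median scaling, 0.06 with quantile normalization) and of EHD3 (0.07 and 0.10, and -0.12 to 0.02 with a library left out), and the ethanol difference of RSM22, whose lowest value with a library left out was -0.01. Over all 31 genes, estimates above 0 between strains in glucose numbered 30, or 18 and 23 under the same scalings and 27 to 30 with a library left out. Whether same-numbered libraries are paired is not stated. The correlation of deviations from group means between same-numbered libraries of a strain ran from -0.423 to 0.171. Between wild type and deletion within a medium it ran from -0.258 to 0.325. Deviations from means of 3 or 4 libraries are tied to each other, so these values cannot decide whether the samples were paired. With the replicate block, 31, 31, 0, 0 and 0 genes were called. The read depth is unknown, and 3 or 4 libraries per group limit what can be seen of differences as small as those between the strains.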
